A study of Mus musculus with 36 samples.

Results

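Srebf1, Mlxipl, Thrsp and Mid1ip1, 4 regulators of fatty acid synthesis, were followed in the livers of 36 male mice. They were selected by gene symbol, as 4 of the 49315 genes listed, each with 1 row. All 4 passed the filter for testing, at least 1 TPM (transcripts per 1000000 transcripts) in at least 4 mice. Across the 9 groups the level of each was highest in control mice given an LXR agonist, and lowest in homozygous mutants not given it. The mean of the highest group was 508.5 times that of the lowest for Thrsp, 47.3 times for Srebf1, 15.4 times for Mid1ip1 and 4.53 times for Mlxipl.

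The mice carried edits of LXRalpha (liver X receptor alpha), a sensor of oxidised cholesterol among the nuclear receptors, made by CRISPR, in which residue 441, a tryptophan (W), became phenylalanine (F). Controls with 2 unedited alleles are written W/W, heterozygotes W/F and homozygous mutants F/F, and each genotype had 4 mice in each of 3 conditions. The mice were 11 to 12 weeks old. One condition was normal chow. The others were a high fat, high cholesterol diet that promotes metabolic dysfunction-associated steatohepatitis (MASH), fed for 4 weeks, with vehicle or with 10 mg/kg of the LXR agonist T0901317 by gavage on each day of the final 2 weeks. The chow mice were an independent cohort that, per the labels, had no gavage described, so diet, gavage and cohort cannot be told apart in comparisons with chow. T0901317 binds both LXR forms, and the labels name no tissue to which the edit is restricted. Labels number the replicates without saying whether mice shared a litter or cage.

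Srebf1 encodes SREBP1, a transcription factor that is made as a membrane protein and must be cut before it can enter the nucleus, so its RNA level is not its activity. Its processed form raises the genes of fatty acid synthesis, and its transcription in liver is a textbook response to LXR and to insulin. Mlxipl encodes ChREBP, which with its partner Mlx binds the promoters of glycolytic and lipogenic genes when sugar metabolites are high. Thrsp (Spot 14) and its relative Mid1ip1 (MIG12) are small proteins. Mid1ip1 binds acetyl-CoA carboxylase and favours its polymerisation, and Thrsp is a classic thyroid hormone and carbohydrate responsive gene of liver and fat.

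In GRCm38 coordinates, Srebf1 (ENSMUSG00000020538) lies on chromosome 11 from 60199089 to 60222581 on the minus strand. Mlxipl (ENSMUSG00000005373) lies on chromosome 5 from 135089890 to 135138382 on the plus strand. Thrsp (ENSMUSG00000035686) lies on chromosome 7 from 97412938 to 97417730 on the minus strand, and Mid1ip1 (ENSMUSG00000008035) on chromosome X from 10715013 to 10719690 on the plus strand. Their exons overlap those of other genes in part. The antisense gene Gm43500 shares 235 exon bases with Mlxipl (4.24% of its exons) and reached 123 TPM. Gm14493 shares 543 bases with Mid1ip1 (25.5%) and is listed at 0 TPM in all mice. Whether the counting used strand is not given in the sources used here, so reads of Mlxipl and Gm43500 in the shared bases cannot be told apart.

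Because all 4 genes were lower in F/F than in W/W under each condition, the 250 bases before each RefSeq start site (GRCm38.p6) were searched for the letters through which SREBP1, ChREBP, nuclear factor Y and nuclear receptors are known to bind. These were the sterol response element TCACNCCAC, the E-box CACGTG, the CCAAT box CCAAT, the nuclear receptor half-site AGGTCA, and DR4, which is 2 half-sites in the same direction with 4 bases between them. Both strands were searched, and a DR4 also counts as a half-site. RefSeq gives 3 start sites for Srebf1, 2 for Mlxipl and 1 each for Thrsp and Mid1ip1. The windows that held the rarer motifs, and the Srebf1 window nearest the 3′ end of that gene, are shown 5′ to 3′ on the gene's strand, with the matched letters in capitals. The first is chr11:60210472-60210721 (minus strand), the second chr5:135089640-135089889 and the third chr5:135106641-135106890 (both plus strand).
Srebf1 window 1: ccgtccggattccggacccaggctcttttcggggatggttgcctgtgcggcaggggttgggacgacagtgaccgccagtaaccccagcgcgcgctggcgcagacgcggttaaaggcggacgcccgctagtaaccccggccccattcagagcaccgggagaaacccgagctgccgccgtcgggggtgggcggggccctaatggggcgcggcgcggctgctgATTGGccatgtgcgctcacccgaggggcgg
Mlxipl window 1: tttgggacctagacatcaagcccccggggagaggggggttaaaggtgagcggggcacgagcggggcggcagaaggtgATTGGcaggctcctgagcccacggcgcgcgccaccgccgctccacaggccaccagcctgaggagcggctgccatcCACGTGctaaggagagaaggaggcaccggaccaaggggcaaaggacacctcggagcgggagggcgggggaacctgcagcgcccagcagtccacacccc
Mlxipl window 2: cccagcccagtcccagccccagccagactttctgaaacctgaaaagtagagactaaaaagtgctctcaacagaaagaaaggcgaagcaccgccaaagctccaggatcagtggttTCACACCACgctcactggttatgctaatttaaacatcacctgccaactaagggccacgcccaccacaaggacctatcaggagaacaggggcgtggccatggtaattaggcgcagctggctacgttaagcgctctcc

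The Srebf1 window holds a CCAAT box on the opposite strand, written ATTGG, 30 to 26 bases before the start. The upstream Mlxipl window holds an E-box 98 to 93 bases before the start, beside a CCAAT box on the opposite strand, and the downstream one holds a sterol response element, TCACACCAC, 136 to 128 bases before its start. Thrsp had 2 CCAAT boxes, Srebf1 window 3 had 1, and Mid1ip1 and Srebf1 window 2 had none of the 5 motifs. No exact half-site or DR4 was matched in the 7 windows. Only the exact letters were searched, so an element that departs from them would be missed. The lack of a match therefore does not show that the windows hold no receptor site. Among the 32851 windows of the same length, 33.8% held a CCAAT box, 14.0% a half-site, 6.02% an E-box, 1.05% a sterol response element and 0.0152% a DR4. These matches describe letters only, and binding was not measured.

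The values are TPM from a single table, with a recovered depth of 18.01 to 35.7 M reads per library (M, 1000000), and the member with fewest reads in a library was Thrsp, at 68 reads. Hepatocyte markers, 7 genes summed, lay between 33427 and 99842 TPM, and each of the 7 was detected in all groups. TPM sum to a constant, and the median gene moved between groups, by as much as 0.70 on the log2 scale between F/F and W/W mice given vehicle. Differences were tested with limma on log2(TPM + 1) as deposited, which does not correct for that shift. A gene was called where its p, adjusted by Benjamini-Hochberg over 16638 genes, was under 0.05. Because of the shift, differences are given again after rescaling each library to a constant median ratio. A value followed by ± is a log2 fold change with the SE of the fit, and "rescaled" marks the value after that step. P-values rest on 1 estimate of the spread between mice for each gene, pooled over all 9 groups. They do not measure the spread of the groups compared alone, which differed between groups. The transcript of the receptor gene itself, Nr1h3, lay between 86.8 and 108 TPM in the 9 group means. A single amino acid change is not visible in TPM, so that level does not check the genotype labels.

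**Figure D1:**
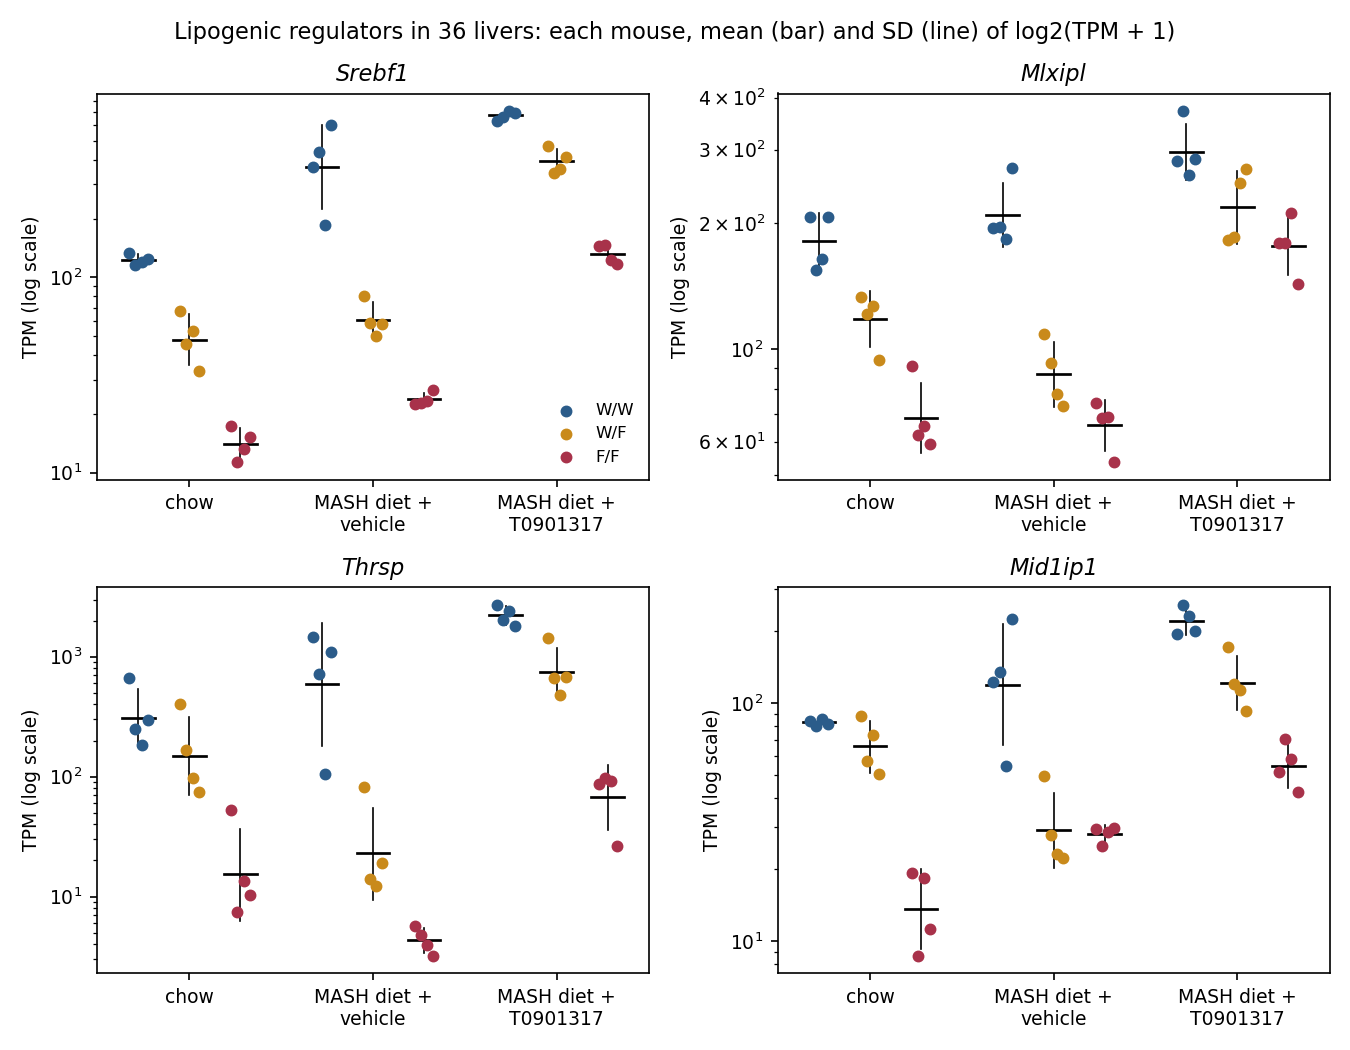
TPM of the 4 genes (log scale) in each mouse, by condition and genotype, with the mean and SD of log2(TPM + 1) as bar and line (n = 4 per group). In each panel F/F lies below W/W under every condition, and within the MASH diet the T0901317 means lie above the vehicle means.

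Srebf1 stepped down with each F allele under all 3 conditions. On chow the 4 mice had 134, 116, 119 and 125 TPM in W/W, 67.1, 45.4, 52.9 and 32.98 in W/F and 17.3, 11.3, 13.2 and 15.2 in F/F. The ranges of the 3 genotypes did not overlap. W/F was lower than W/W, at -1.34 ± 0.22 (adjusted p 4.92e-04; -1.37 rescaled), and F/F at -3.04 ± 0.22 (adjusted p 1.29e-11; -3.41 rescaled). On the MASH diet with vehicle the W/W mice spread widely, at 365, 441, 186 and 599 TPM for replicates 1 to 4, against 80.6, 58.5, 49.9 and 58.03 in W/F and 22.5, 22.6, 23.3 and 26.6 in F/F. Replicate 3 was the lowest of the W/W vehicle mice, yet above every mutant on vehicle. The difference from W/W was -2.57 ± 0.22 (adjusted p 2.37e-11; -3.22 rescaled) in W/F and -3.89 ± 0.22 (adjusted p 1.78e-15; -4.72 rescaled) in F/F. With T0901317 the levels were 635, 662, 710.1 and 694 TPM in W/W, 469.5, 341, 360.3 and 413 in W/F and 145, 146, 122 and 117 in F/F. Again no range overlapped another. W/F was lower than W/W, at -0.78 ± 0.22 (adjusted p 0.017; -0.77 rescaled), a call that ended without W/F T0901317 replicate 2 (-0.71, adjusted p 0.053) or replicate 3 (-0.74, adjusted p 0.0503). F/F was lower than W/W, at -2.34 ± 0.22 (adjusted p 4.71e-10; -2.86 rescaled). The W/F difference on chow was not called when only those 2 groups were fitted (limma adjusted p 0.141).

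The order of the 9 Srebf1 means put W/F with T0901317 (396 ± 57.7 TPM, SD, n = 4) level with W/W on vehicle (398 ± 171), with overlapping mice. F/F with T0901317 (133 ± 15.1) sat beside W/W on chow (123 ± 7.66), also overlapping. Of the other neighbours in that order, only W/F on vehicle and W/F on chow overlapped. Of these overlapping neighbours, only the last pair was tested against each other. The diet difference there was 0.33 ± 0.22 (log2 fold change ± SE, limma adjusted p 0.184) as deposited and -0.16 (adjusted p 0.576) rescaled, so its direction turned with the scaling.

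Mlxipl had the same order of genotypes over a smaller span. On chow it was at 207, 155, 164 and 207 TPM in W/W, 133, 122, 126 and 93.97 in W/F and 90.9, 62.2, 65.4 and 59.3 in F/F. The ranges did not overlap, but the W/F difference from W/W was not called, at -0.62 ± 0.17 (adjusted p 0.108; -0.65 rescaled), and it passed with array quality weights (adjusted p 0.0279). F/F was lower than W/W, at -1.40 ± 0.17 (adjusted p 1.11e-07; -1.77 rescaled). On vehicle it was at 195, 196, 184 and 272 TPM in W/W, 109, 92.5, 77.96 and 73.1 in W/F and 74.1, 68.2, 68.7 and 53.6 in F/F. Every mutant lay below every control there, while W/F and F/F overlapped. The difference from W/W was -1.25 ± 0.17 (adjusted p 1.09e-07; -1.91 rescaled) in W/F and -1.66 ± 0.17 (adjusted p 2.69e-10; -2.50 rescaled) in F/F. With T0901317 it was at 281, 371, 261 and 285 TPM in W/W, 182, 186, 249 and 269 in W/F and 179, 179, 212 and 143 in F/F. W/F overlapped both other genotypes, and only F/F differed from W/W by the test, by -0.75 ± 0.17 (adjusted p 2.72e-04; -1.27 rescaled). F/F against W/F was not called as deposited, at -0.30 ± 0.17 (adjusted p 0.11; -0.83 rescaled), but passed rescaled (adjusted p 1.96e-04), with array quality weights (0.00992) and with recovered reads (0.0262). On vehicle the same pair was at -0.40 ± 0.17 (adjusted p 0.0812; -0.59 rescaled), and passed rescaled (adjusted p 0.0205) and with array quality weights (0.032). In the order of the 9 means every neighbour overlapped the next except F/F with T0901317 above W/F on chow.

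Thrsp was the most variable member within groups as well as between them, with a coefficient of variation of 18.25% to 106% per group against 4.98% to 43.1% for Srebf1. On chow the mice had 663, 249, 183 and 299 TPM in W/W, 401, 168, 97.98 and 74.3 in W/F and 52.7, 7.37, 13.4 and 10.4 in F/F. W/W and W/F overlapped, and F/F lay below both. The F/F difference from W/W was -4.23 ± 0.67 (adjusted p 9.83e-06; -4.60 rescaled), and the W/F difference was not called, at -1.04 ± 0.67 (adjusted p 1; -1.08 rescaled). On vehicle the levels were 1464, 712, 105 and 1085 TPM in W/W, 82.6, 14.1, 12.2 and 19.00 in W/F and 5.71, 4.73, 3.96 and 3.21 in F/F. The 3 genotypes did not overlap, although W/W replicate 3 came close to W/F replicate 1. W/F was lower than W/W, at -4.62 ± 0.67 (adjusted p 4.98e-07; -5.26 rescaled) and F/F at -6.79 ± 0.67 (adjusted p 1.84e-10; -7.53 rescaled), the widest genotype gap of any member. F/F was also lower than W/F, at -2.17 ± 0.67 (adjusted p 0.0196; -2.27 rescaled). That call ended without W/F vehicle replicate 1 (-1.57, adjusted p 0.0971), without F/F vehicle replicate 4 (-2.06, adjusted p 0.0506) and with recovered reads (adjusted p 0.121).

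With T0901317 Thrsp reached 2724, 2008, 2415 and 1813 TPM in W/W and 1433, 659, 475 and 677 in W/F, but 86.6, 97.02, 92.8 and 26.2 in F/F. The highest F/F mouse with T0901317 was below the lowest W/W mouse on chow. F/F differed from W/W by -5.02 ± 0.67 (adjusted p 2.40e-07; -5.53 rescaled) and from W/F by -3.44 ± 0.67 (adjusted p 6.65e-05; -3.97 rescaled). W/F did not overlap W/W, yet the difference was not called, at -1.57 ± 0.67 (adjusted p 0.147; -1.56 rescaled). It passed with array quality weights (0.0221) and when only those 2 groups were fitted (0.0294).

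Mid1ip1 separated the mutants differently. On chow it was at 84.3, 79.7, 85.9 and 81.4 TPM in W/W and 87.9, 56.9, 73.5 and 50.3 in W/F, which overlapped, and at 19.2, 8.68, 18.4 and 11.2 in F/F. The F/F difference from W/W was -2.51 ± 0.29 (adjusted p 5.91e-08; -2.88 rescaled). On vehicle it was at 122, 135, 54.4 and 225 TPM in W/W, 49.1, 27.9, 23.3 and 22.4 in W/F and 29.7, 24.9, 28.7 and 29.8 in F/F. The W/F range enclosed that of F/F. Both mutants were lower than W/W, W/F at -1.997 ± 0.29 (adjusted p 4.58e-07; -2.64 rescaled) and F/F at -2.04 ± 0.29 (adjusted p 1.80e-07; -2.87 rescaled), and F/F against W/F was -0.04 ± 0.29 (limma adjusted p 0.935). With T0901317 it was at 195, 259, 232 and 200.1 TPM in W/W, 171, 120.2, 114 and 92.3 in W/F and 51.3, 70.2, 57.9 and 42.2 in F/F, with no overlap between genotypes. F/F was lower than W/W, at -1.996 ± 0.29 (adjusted p 8.08e-07; -2.51 rescaled). The W/F difference missed the threshold as deposited, at -0.86 ± 0.29 (adjusted p 0.0535; -0.85 rescaled), and passed it rescaled, with the filter at 5 TPM, with array quality weights and with only those groups fitted (adjusted p 0.00661 to 0.0487). It also passed without W/F T0901317 replicate 1, F/F chow replicate 2, W/F vehicle replicate 1 or W/W vehicle replicate 3 or 4 (adjusted p 0.0175 to 0.0429).

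All calls between genotypes were downward for the members, so the share of all genes called lower is given beside each count, followed by the share called either way. On chow W/F had 1 of 4 members below W/W (0.288% of all genes lower, 0.487% either way) and F/F had 4 of 4 (3.65% lower, 46.7% either way). On vehicle W/F had 4 of 4 below W/W (6.83% lower, 68.5% either way) and F/F had 4 of 4 (7.13% lower, 76.5% either way). With T0901317 W/F had 1 of 4 below W/W (6.23% lower, 9.88% either way) and F/F had 4 of 4 (6.96% lower, 63.2% either way). F/F was below W/F for 4 of 4 on chow (3.43% lower, 41.4% either way), 2 of 4 on vehicle (2.30% lower, 21.3% either way) and 3 of 4 with T0901317 (4.08% lower, 62.6% either way). Rescaled, the members called were 1 of 4 on chow, 4 of 4 on vehicle and 2 of 4 with T0901317 for W/F against W/W, where 0.409%, 25.3% and 8.38% of all genes were lower. For F/F and W/W mice they were 4 of 4 in each condition, where 13.8%, 27.7% and 22.4% of all genes were lower, and for F/F and W/F mice 4, 3 and 4 of 4, where 14.3%, 4.67% and 18.5% were. On vehicle the median of all genes was above that of W/W by 0.52 in W/F mice and by 0.70 in F/F mice, and the members were lower.

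The vehicle and T0901317 mice, all on the MASH diet, give the response to the agonist. Among the members 3 of 4 rose in W/W, where 7.87% of all genes rose, 2.91% fell and 10.8% were called either way. In W/F mice 4 of 4 rose, where 6.59% of all genes rose, 59.3% fell and 65.9% were called. In F/F mice 4 of 4 rose, where 3.95% of all genes rose, 31.2% fell and 35.1% were called. Rescaled, 1 of 4 rose in W/W (8.05% of all genes rose, 5.52% fell), 4 of 4 in W/F (23.5% rose, 27.3% fell) and 4 of 4 in F/F (8.28% rose, 8.12% fell). In W/W Srebf1 rose by 0.88 ± 0.22 (adjusted p 0.00599; 0.81 rescaled). Without W/W vehicle replicate 3, the low mouse, the rise was 0.56 (adjusted p 0.0467), and with only those 2 groups fitted it was not called (adjusted p 0.138). Mlxipl rose by 0.50 ± 0.17 (adjusted p 0.0451; 0.44 rescaled) and Mid1ip1 by 0.88 ± 0.29 (adjusted p 0.0436; 0.81 rescaled). Neither was called rescaled, with no filter or with only those groups fitted, nor was Mlxipl with recovered reads (adjusted p 0.0964), and in both the highest vehicle mouse, replicate 4, lay within the treated range. The Mlxipl call ended without any one of 12 libraries (adjusted p 0.0503 to 0.189), namely all W/W mice of this comparison except T0901317 replicate 3 and vehicle replicate 4, and F/F chow replicate 3, F/F T0901317 replicates 1 and 2, F/F vehicle replicates 2 and 3 and W/F chow replicate 2. The Mid1ip1 call ended without any one of 7, all but vehicle replicate 4 (adjusted p 0.0534 to 0.268), with a value of 0.51 without vehicle replicate 3. Thrsp was not called, at 1.91 ± 0.67 (adjusted p 0.0627; 1.84 rescaled), although no treated mouse overlapped a vehicle mouse. It passed with array quality weights (2.03, adjusted p 0.013) and with the filter at 5 TPM (adjusted p 0.0472), and without W/W vehicle replicate 1, W/W vehicle replicate 4, F/F chow replicate 1 or W/F vehicle replicate 1 (adjusted p 0.0311 to 0.0494).

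All 4 members rose in both mutants. In W/F mice Srebf1 rose by 2.67 ± 0.22 (adjusted p 3.70e-11; 3.27 rescaled), Mlxipl by 1.32 ± 0.17 (adjusted p 6.87e-08; 1.91 rescaled), Thrsp by 4.95 ± 0.67 (adjusted p 2.10e-07; 5.53 rescaled) and Mid1ip1 by 2.02 ± 0.29 (adjusted p 4.84e-07; 2.61 rescaled). In F/F mice Srebf1 rose by 2.43 ± 0.22 (adjusted p 1.72e-09; 2.67 rescaled), Mlxipl by 1.41 ± 0.17 (adjusted p 3.65e-07; 1.67 rescaled), Thrsp by 3.68 ± 0.67 (adjusted p 1.69e-04; 3.84 rescaled) and Mid1ip1 by 0.93 ± 0.29 (adjusted p 0.014; 1.18 rescaled). No treated mutant overlapped a vehicle mutant of its genotype for any member. As ratios of mean TPM, W/F mice went up 6.41 times for Srebf1, 2.515 times for Mlxipl, 25.4 times for Thrsp and 4.05 times for Mid1ip1. The same ratios in F/F were 5.58, 2.695, 17.2 and 1.96, and in W/W 1.70, 1.42, 2.66 and 1.655.

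The difference in response was tested directly. The response of W/F exceeded that of W/W for 4 of 4 members (5.27% of all genes had a larger response, 53.2% a smaller one, 58.5% in all; rescaled 19.7% and 24.1%), by 1.79 ± 0.31 (adjusted p 1.33e-05; 2.46 rescaled) for Srebf1, 0.81 ± 0.23 (adjusted p 0.00376; 1.48 rescaled) for Mlxipl, 3.04 ± 0.94 (adjusted p 0.00658; 3.69 rescaled) for Thrsp and 1.14 ± 0.40 (adjusted p 0.0166; 1.79 rescaled) for Mid1ip1. The last ended without W/W vehicle replicate 4 (0.84, adjusted p 0.058) and with only those groups fitted (adjusted p 0.0548). The response of F/F exceeded that of W/W for 2 of 4 (3.29% larger and 27.2% smaller among all genes, 30.4% in all; rescaled 7.33% and 10.1%), by 1.55 ± 0.31 (adjusted p 4.51e-04; 1.86 rescaled) for Srebf1 and 0.91 ± 0.23 (adjusted p 0.00461; 1.24 rescaled) for Mlxipl. For Thrsp the difference was 1.77 ± 0.94 (adjusted p 0.151; 1.998 rescaled), and it passed without W/W vehicle replicate 3 (2.60, adjusted p 0.0209). For Mid1ip1 it was 0.05 ± 0.40 (adjusted p 0.945; 0.36 rescaled). Between F/F and W/F 0 of 4 responses were called by limma (19.2% of all genes), with 1 at an unadjusted p under 0.05. That 1 was Mid1ip1, at -1.09 ± 0.40 (adjusted p 0.0549; -1.43 rescaled). It passed rescaled, with the filter at 5 TPM, with array quality weights, with recovered reads and with only those groups fitted (adjusted p 0.018 to 0.0495). Rescaled, 6.64% of all genes had a smaller response in F/F than in W/F. It also passed without any one of 5 libraries (adjusted p 0.0194 to 0.0454): F/F chow replicate 2, W/F T0901317 replicate 4, W/F vehicle replicate 1, and W/W vehicle replicates 3 and 4. These response differences share vehicle and T0901317 mice across genotypes and so are not independent of each other.

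The responses start from different levels, and the end levels differ too. With T0901317, W/F mice reached 99.5% of the W/W vehicle mean for Srebf1, 105% for Mlxipl, 96.35% for Thrsp and 92.8% for Mid1ip1. F/F mice reached 33.35%, 84.25%, 8.99% and 41.35% of it. Against W/W mice that were also given T0901317, W/F stood at 58.65%, 73.9%, 36.2% and 56.1%, and F/F at 19.65%, 59.5%, 3.38% and 24.99%, in the same order of genes. Thrsp was the member furthest from the control level in F/F under the agonist, and Mlxipl the nearest.

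Between chow and the MASH diet with vehicle, the 4 genes differed in unlike directions. Diet, gavage and cohort cannot be told apart in these comparisons. In W/W mice only Srebf1 rose, by 1.56 ± 0.22 (adjusted p 1.42e-05; 1.69 rescaled), so that 1 of 4 was called (2.59% of all genes rose, 12.9% were called either way; rescaled 7.0% rose). Mlxipl, Thrsp and Mid1ip1 had log2 fold changes of 0.20, 0.93 and 0.52 there, and Mid1ip1 passed without W/W vehicle replicate 3 (0.89, adjusted p 0.0244). In W/F mice 3 of 4 fell (8.53% of all genes fell, 61.0% were called either way; rescaled 26.8% fell). Thrsp fell by 2.64 on the log2 scale (adjusted p 0.00102, limma; -3.12 rescaled) and Mid1ip1 by 1.15 (adjusted p 9.5e-04; -1.63 rescaled). Mlxipl fell by 0.43 (adjusted p 0.0243; -0.93 rescaled), a call that ended without W/F chow replicate 1 or 3 or W/F vehicle replicate 3 or 4 (adjusted p 0.0587 to 0.0883). Srebf1 did not pass there. Of the 3 called, the chow and vehicle mice of W/F overlapped for Thrsp and Mlxipl, and did not for Mid1ip1. In F/F mice 3 of 4 were called (46.5% of all genes rose and 9.27% fell, 55.8% in all; rescaled 21.1% fell), with Srebf1 up by 0.71 ± 0.22 (adjusted p 0.00611; 0.38 rescaled) and Mid1ip1 up by 0.99 ± 0.29 (adjusted p 0.00408; 0.65 rescaled). Neither was called rescaled, and the median of all genes rose by 0.32 in that comparison. Thrsp fell in F/F by 1.63 (adjusted p 0.0382, limma; -1.87 rescaled). Without F/F chow replicate 1, a mouse at 52.7 TPM, the change was -1.06 (adjusted p 0.194), and the call also ended without F/F chow replicate 3 or F/F vehicle replicate 2, 3 or 4, with no filter and with recovered reads (adjusted p 0.0511 to 0.167).

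The diet responses of W/F and W/W mice were unlike for 4 of 4 members (5.13% of all genes had a lower response in W/F, 54.6% were called either way; rescaled 18.9% lower), at -1.23 ± 0.31 (adjusted p 0.00121; -1.85 rescaled) for Srebf1, -0.63 ± 0.23 (adjusted p 0.0228; -1.25 rescaled) for Mlxipl, -3.57 ± 0.94 (adjusted p 0.00206; -4.18 rescaled) for Thrsp and -1.67 ± 0.40 (adjusted p 9.99e-04; -2.28 rescaled) for Mid1ip1. The Mlxipl call ended without W/F vehicle replicate 4, W/W chow replicate 2 or W/W vehicle replicate 4 (adjusted p 0.0533 to 0.0659). Between F/F and W/W 2 of 4 differed (4.54% of all genes lower in F/F, 46.0% either way; rescaled 12.2% lower), Srebf1 at -0.85 ± 0.31 (adjusted p 0.0235; -1.32 rescaled) and Thrsp at -2.56 ± 0.94 (adjusted p 0.0271; -2.93 rescaled). The Srebf1 call ended without F/F chow replicate 1 or W/W vehicle replicate 2 or 4 (adjusted p 0.0505 to 0.074), and with only those groups fitted (0.0589). The Thrsp call ended without F/F chow replicate 1, W/W chow replicate 3, or W/W vehicle replicate 1 or 4 (adjusted p 0.057 to 0.0806), with no filter (0.0537) and with recovered reads (0.087). Mlxipl was called there rescaled, at -0.73 (adjusted p 0.0226). Between F/F and W/F 1 of 4 differed (1.34% of all genes higher in F/F, 6.83% either way; rescaled 2.99% higher). Mid1ip1 was that gene, rising with diet in F/F as deposited and falling in W/F, with a difference of 2.14 ± 0.40 (adjusted p 0.00108; 2.28 rescaled).

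Genes that act with the members were set beside them, from lists written for this tissue. Of the SREBP processing list, 11 genes that hold SREBP in the membrane, carry it, cut it or clear it, 2 rose with T0901317 in W/W, 2 rose and 7 fell in W/F mice, and 1 rose and 4 fell in F/F mice. Among all genes 7.87% rose in W/W, 6.59% rose and 59.3% fell in W/F, and 3.95% rose and 31.2% fell in F/F. Rescaled, 2 list members rose and 1 fell in W/W (8.05% and 5.52% of all genes). In W/F mice 3 rose and 3 fell rescaled (23.5% and 27.3% of all genes), and in F/F mice 1 rose (8.28%). The median log2 fold changes were 0.275, -0.52 and -0.12, beside 0.06, -0.49 and -0.24 for all genes. Insig1, which retains SREBP when sterols are high and is itself an SREBP target, was the top gene in all 3. It stood at 127, 200.2, 106 and 125 TPM on vehicle and 290.5, 301, 307 and 284 with T0901317 in W/W, a rise of 1.12 ± 0.22 (adjusted p 6.69e-04; 1.05 rescaled). In W/F it rose by 0.69 ± 0.22 (adjusted p 0.00683; 1.28 rescaled), and in F/F by 1.02 ± 0.22 (adjusted p 9.65e-04; 1.27 rescaled). Its responses did not differ between genotypes by the test (adjusted p 0.242 and 0.843). With the diet Insig1 fell in each genotype, from 365 to 139 TPM in W/W, from 420.5 to 41.1 in W/F and from 106 to 26.5 in F/F (group means). Insig1 therefore went down with the diet in W/W while Srebf1 RNA went up, at log2 fold changes of -1.42 (adjusted p 7.57e-05) and 1.56. Scap, the escort of SREBP, fell with the diet by 0.62 in W/W (adjusted p 0.00137; -0.50 rescaled), 0.92 in W/F (adjusted p 2.85e-07; -1.40 rescaled) and 0.33 in F/F (adjusted p 0.0271; -0.66 rescaled).

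Of the list of ChREBP partners and sugar handling, 14 genes, 2 rose with T0901317 in W/W, 5 rose and 4 fell in W/F, and 2 rose and 2 fell in F/F. Among all genes 7.87% rose in W/W, 6.59% rose and 59.3% fell in W/F, and 3.95% rose and 31.2% fell in F/F. Rescaled, 10 rose and 2 fell in W/F (23.5% and 27.3% of all genes), and 4 rose and 2 fell in F/F (8.28% and 8.12%). Mlx, the obligate partner of ChREBP, had group means of 36.03 to 42.6 TPM and was not called as deposited in any T0901317 comparison. Rescaled it rose in W/F, by 0.51. On vehicle its direction turned with the scaling, at 0.21 as deposited (adjusted p 0.0807) and -0.63 rescaled (adjusted p 9.75e-06) for F/F mice beside W/W mice. Pklr, the pyruvate kinase long known as a ChREBP target, was lower in F/F than in W/W on vehicle at -1.45 ± 0.43 (adjusted p 0.00316; -2.30 rescaled), but its T0901317 responses did not pass in any genotype as deposited. Rescaled it rose in W/F, by 1.14 (adjusted p 0.0295) where the deposited value was 0.54. Txnip, another target, rose with the diet in W/W from 38.6 to 107 TPM, by 1.41 ± 0.27 (adjusted p 7.65e-04; 1.54 rescaled), and did not pass with T0901317 in W/W. Rescaled it rose with T0901317 in W/F, by 1.12 (adjusted p 6.19e-04), where the deposited value of 0.53 was not called. Mlxip, a relative of Mlxipl, had vehicle means of 2.34 TPM in W/W mice, 7.55 TPM in W/F mice and 8.48 TPM in F/F mice, the opposite direction to Mlxipl. The difference from W/W was 1.36 ± 0.17 (adjusted p 4.96e-08; 0.84 rescaled) in W/F and 1.54 ± 0.17 (adjusted p 2.30e-09; 0.84 rescaled) in F/F.

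**Figure D2:**
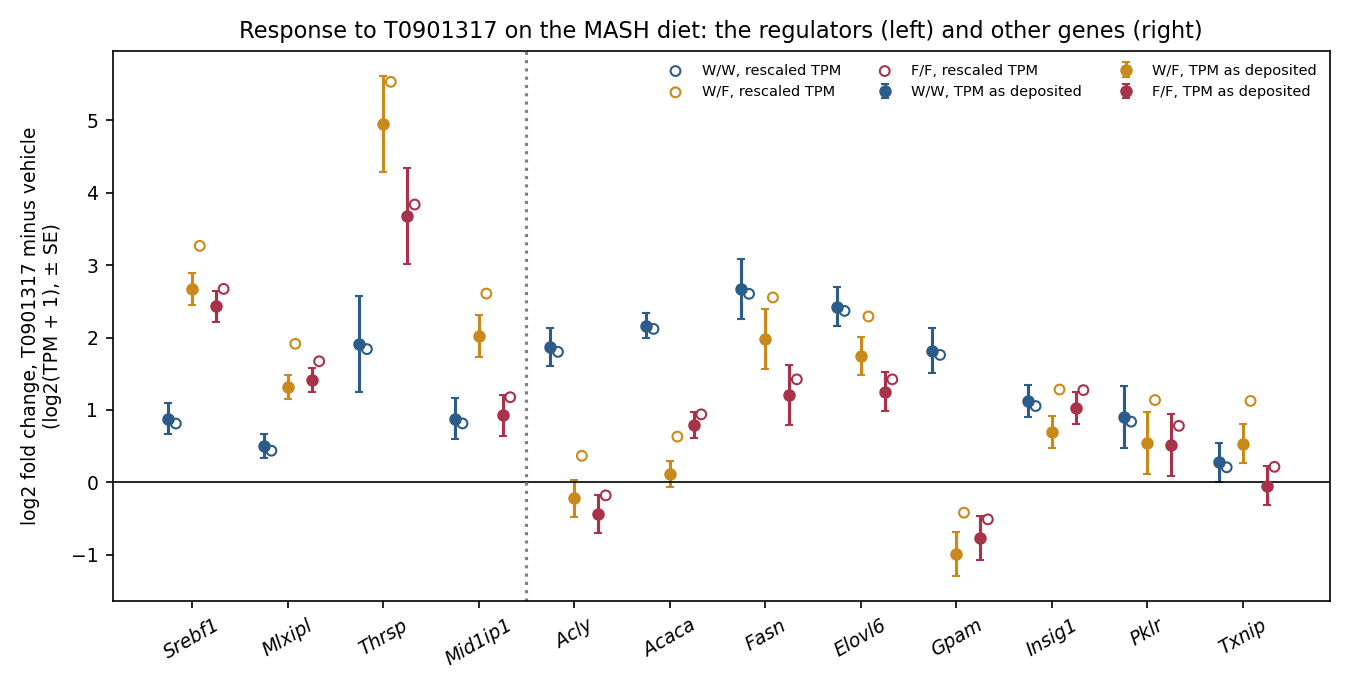
Log2 fold change of T0901317 against vehicle in each genotype for the 4 regulators (left of the dotted line) and 8 other genes, as deposited (filled, ± SE of the fit) and rescaled (open). For Srebf1, Mlxipl and Thrsp the mutants lie above W/W, whereas for Acly, Acaca and Gpam W/W lies above both mutants.

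Most enzymes of fatty acid and glyceride synthesis rose with T0901317 in W/W mice, and fewer did so in the mutants. The gap in counts between W/F and W/W was much smaller when rescaled. Of 16 lipogenic enzymes, 14 rose with T0901317 in W/W, where 7.87% of all genes rose, with a median log2 fold change of 1.84. In W/F 5 rose and 1 fell, with a median of 0.355, and in F/F 4 rose and 1 fell, with a median of 0.21. Of all genes, 6.59% rose and 59.3% fell in W/F, and 3.95% rose and 31.2% fell in F/F. Rescaled, 12 rose in W/F and 7 in F/F, where 23.5% and 8.28% of all genes rose, and the medians were 0.875 and 0.47. The response was smaller than in W/W for 10 enzymes in W/F and 11 in F/F, and larger for 1 in each, as deposited. The deposited response was smaller for 53.2% and larger for 5.27% of all genes in W/F, and for 27.2% and 3.29% in F/F. Rescaled, it was smaller for 7 and larger for 2 in each, where 24.1% of all genes were smaller and 19.7% larger in W/F, and 10.1% and 7.33% in F/F. The list was written with earlier results of these data known. With T0901317 the same 16 enzymes against W/W counted 14 lower in W/F and 16 lower in F/F, with medians of -2.76 and -3.06. Of all genes, 6.23% were lower in W/F and 6.96% in F/F.

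Acly, which makes cytosolic acetyl-CoA from citrate, shows the contrast with Srebf1. In W/W it went from 85.9, 113, 35.05 and 136 TPM on vehicle to 339.8, 279.6, 339 and 267 with T0901317, a rise of 1.87 ± 0.26 (adjusted p 6.24e-06; 1.80 rescaled). In W/F it was at 53.8, 53.3, 56.9 and 49.1 TPM on vehicle and 49.03, 40.4, 41.98 and 51.03 with T0901317, and the change of -0.22 ± 0.26 (adjusted p 0.463; 0.37 rescaled) did not pass. In F/F it was at 40.9, 56.7, 53.4 and 48.4 and 42.9, 39.3, 28.1 and 35.95 TPM, and the change of -0.44 ± 0.26 (adjusted p 0.184; -0.18 rescaled) did not pass either. Treated W/F mice, whose Srebf1 mean was next to that of W/W vehicle mice, had a mean of 45.6 TPM for Acly against 92.6 in those controls, a pair not tested. The difference of the Acly response from W/W was -2.09 ± 0.37 (adjusted p 2.20e-05; -1.44 rescaled) in W/F and -2.31 ± 0.37 (adjusted p 4.41e-05; -1.98 rescaled) in F/F.

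Acaca, the acetyl-CoA carboxylase that Mid1ip1 binds, rose in W/W from 10.5, 13.6, 6.93 and 12.7 TPM to 60.6, 46.96, 50.1 and 48.1, by 2.17 ± 0.18 (adjusted p 3.75e-10; 2.12 rescaled). In W/F its change was 0.11 ± 0.18 (adjusted p 0.588; 0.63 rescaled), which passed when rescaled (adjusted p 0.00237). In F/F it rose by 0.80 ± 0.18 (adjusted p 0.00145; 0.94 rescaled). Its responses were smaller than in W/W, at -2.05 ± 0.25 (adjusted p 1.14e-07; -1.49 rescaled) in W/F and -1.37 ± 0.25 (adjusted p 2.35e-04; -1.18 rescaled) in F/F. Gpam, which starts glycerolipid synthesis, rose in W/W by 1.82 ± 0.31 (adjusted p 9.62e-05; 1.76 rescaled). It was lower with T0901317 in W/F, at -0.99 ± 0.31 (adjusted p 0.00557; -0.42 rescaled) and in F/F at -0.77 ± 0.31 (adjusted p 0.0494; -0.51 rescaled), and neither was called rescaled. The response differences from W/W were -2.81 ± 0.43 (adjusted p 3.40e-06; -2.18 rescaled) and -2.59 ± 0.43 (adjusted p 7.60e-05; -2.27 rescaled).

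Fasn, the fatty acid synthase, and Elovl6, which lengthens its product, did respond in the mutants. Fasn rose by 2.67 ± 0.41 (adjusted p 2.89e-05; 2.60 rescaled) in W/W, 1.98 ± 0.41 (adjusted p 1.19e-04; 2.55 rescaled) in W/F and 1.21 ± 0.41 (adjusted p 0.0245; 1.42 rescaled) in F/F. The responses of Fasn did not differ from W/W by the test (adjusted p 0.321 in W/F and 0.0568 in F/F). Its end level did, since treated W/F mice had 94.7, 53.97, 53.5 and 59.3 TPM and treated W/W mice 944, 1021, 775 and 625, a gap of -3.68 ± 0.41 (adjusted p 1.11e-07; -3.67 rescaled). Elovl6 rose by 2.43 ± 0.27 (adjusted p 1.31e-07; 2.37 rescaled) in W/W, 1.75 ± 0.27 (adjusted p 1.73e-06; 2.29 rescaled) in W/F and 1.25 ± 0.27 (adjusted p 9.38e-04; 1.42 rescaled) in F/F. Among the rest of the list, Pnpla3, a lipid droplet lipase, had the highest rise in W/W (2.63 to 75.8 TPM), and Scd1, the fatty acid desaturase, the highest in F/F (13.1 to 583 TPM, group means).

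**Figure D3:**
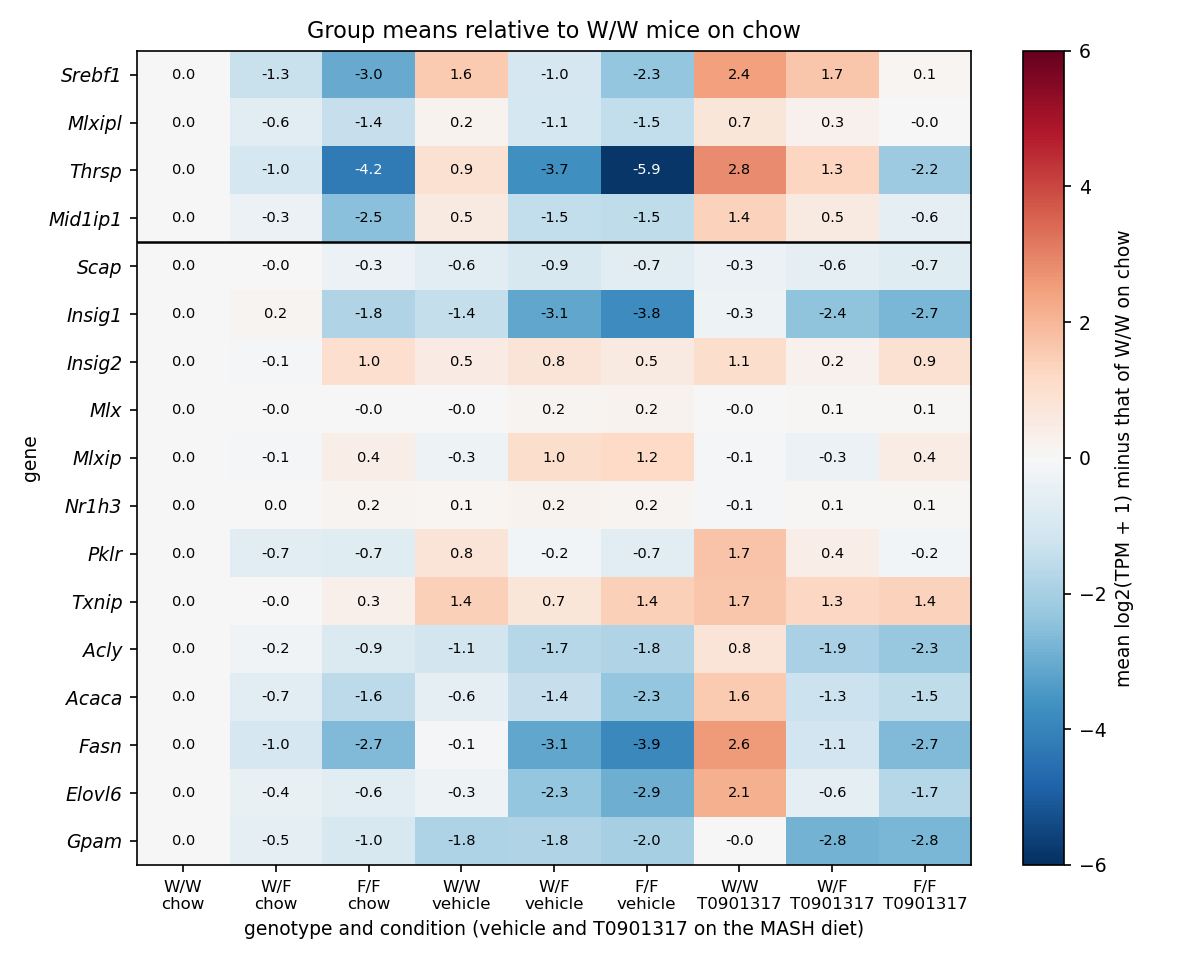
Mean log2(TPM + 1) of each group (n = 4) minus that of W/W mice on chow, for the 4 regulators (above the line) and 13 other genes, with colour and printed values on the same scale. With T0901317, the W/F column is above 0 for Srebf1, Mlxipl, Thrsp and Mid1ip1, and below 0 for Acly, Acaca, Fasn, Elovl6 and Gpam.

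Of 14 other factors that act on lipogenic promoters, 0 were called with T0901317 in W/W, 5 fell in W/F and 3 fell in F/F. Among all genes 10.8% were called in W/W, 59.3% fell in W/F and 31.2% fell in F/F. Rescaled, 1 fell in W/W (5.52% of all genes). In W/F 7 rose and 1 fell rescaled (23.5% and 27.3% of all genes), and in F/F 2 rose and 1 fell (8.28% and 8.12%). The median log2 fold change of the list with T0901317 was -0.24 for W/F mice and -0.105 for F/F mice, beside -0.49 and -0.24 for all genes. Nfya, a subunit of the factor that binds CCAAT boxes, had the lowest log2 fold change of those called in both mutants, at -1.07 in W/F and -0.73 in F/F (-0.56 and -0.47 rescaled). On vehicle its group mean was 3.34 TPM in W/W mice, 9.37 TPM in W/F mice and 10.7 TPM in F/F mice.

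Across the 9 group means the members resembled each other, with Pearson's r on log2(TPM + 1) between 0.91 (Srebf1 with Thrsp) and 0.96 (Srebf1 with Mlxipl). The 9 points share their libraries across genes and are a description only. Among 11195 genes with a mean of at least 5 TPM in 1 or more groups, the 5 most like each member were taken. For Srebf1 they were 1700080G11Rik (r 0.99), Acaa1b (0.97), Cyp4f15 (0.97), Dhrs4 (0.97) and Retsat (0.96). For Mlxipl, 4 of the 5 were Inmt (0.96), Upp2 (0.96), Srebf1 (0.96) and Retsat (0.96). For Thrsp they were 1700001C19Rik (0.98), Mfsd4b1 (0.98), Shpk (0.98), Retsat (0.98) and Sugct (0.98), and for Mid1ip1 Emc9 (0.97), Tmem14c (0.97), Retsat (0.97), Reep6 (0.97) and Acot1 (0.96). Retsat, retinol saturase, was in all 4 sets, with group means from 71.7 TPM in F/F on vehicle to 708 TPM in W/W with T0901317. Its mean in W/F with T0901317, 425 TPM, was next to that of W/W on vehicle, 440 TPM, the same pair as for Srebf1. The antisense gene Gm43500, whose exons overlap those of Mlxipl, rose with T0901317 from 15.3 to 44.999 TPM in W/F (limma adjusted p 3.46e-05) and from 19.1 to 51.4 TPM in F/F (adjusted p 7.35e-04). In W/W it was at 49.5 and 89.3 TPM, which did not pass (adjusted p 0.0738; group means).

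Markers of other cells moved with genotype on the MASH diet, and with T0901317 in the mutants. Summed macrophage markers, 6 genes, lay between 161 and 302 TPM in W/W vehicle mice, between 2545 and 3337 in W/F and between 3109 and 4047 in F/F. With T0901317 they lay between 175 and 353, 140 and 946, and 1226 and 1977 TPM. On chow they lay between 111 and 157 in W/W, 77.7 and 144 in W/F, and 456 and 725 in F/F. Lyz2 reached 3604 TPM in a mouse, while Cd68, the next highest of the 6, reached 312. The macrophage sum therefore follows Lyz2 most where it is high, and does not show how each of the 6 moved. Stellate and fibroblast markers, 6 genes, were at 91.4 to 147 TPM in W/W vehicle mice, 573 to 768 in W/F and 936 to 1141 in F/F. Hepatocyte markers were at 63734 to 85064 TPM in W/W vehicle mice, 55651 to 64083 in W/F and 33427 to 36545 in F/F. With T0901317 hepatocyte markers were at 69211 to 79750 TPM in W/W, 46589 to 69171 in W/F and 48770.2 to 64395 in F/F, so in F/F they lay above the vehicle mice. Stellate and fibroblast markers with T0901317 were at 126 to 239, 161 to 278 and 425 to 755 TPM, and in both mutants they lay below the vehicle mice. Of the hepatocyte markers Alb was the highest in every mouse, at 18000 to 69068 TPM, so their sum follows Alb most. Fewer hepatocytes, less RNA per hepatocyte and a change in Alb alone cannot be told apart by this sum in whole liver. The part of these marker shifts in the lower levels of the members, or in their rise with T0901317, was not tested. The hepatocyte ranges of W/W and W/F on chow overlapped, at 64569 to 99842 and 55003 to 88420 TPM, and those of F/F on chow were 63070 to 83809. Stellate and fibroblast markers on chow were at 71.2 to 111 TPM in W/W, 94.5 to 120 in W/F and 261 to 509 in F/F. On vehicle, neutrophil markers (4 genes) were at 2.02 to 6.82 TPM in W/W, 68.3 to 127 in W/F and 121 to 349 in F/F, and cholangiocyte markers (4 genes) at 6.02 to 8.73, 41.2 to 64.0 and 121 to 153. With T0901317 the neutrophil markers were at 2.87 to 10.4, 3.95 to 16.7 and 16.1 to 73.7 TPM, and the cholangiocyte markers at 7.91 to 14.7, 12.2 to 15.5 and 50.5 to 114. Endothelial markers (4 genes) lay between 22.5 and 48.4 TPM and lymphocyte markers (4 genes) between 0.402 and 4.06 TPM over all mice. Adipocyte markers, 4 genes that include Lep (at 0 in all 9 groups), summed to at most 0.756 TPM in a mouse.

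**Figure D4:**
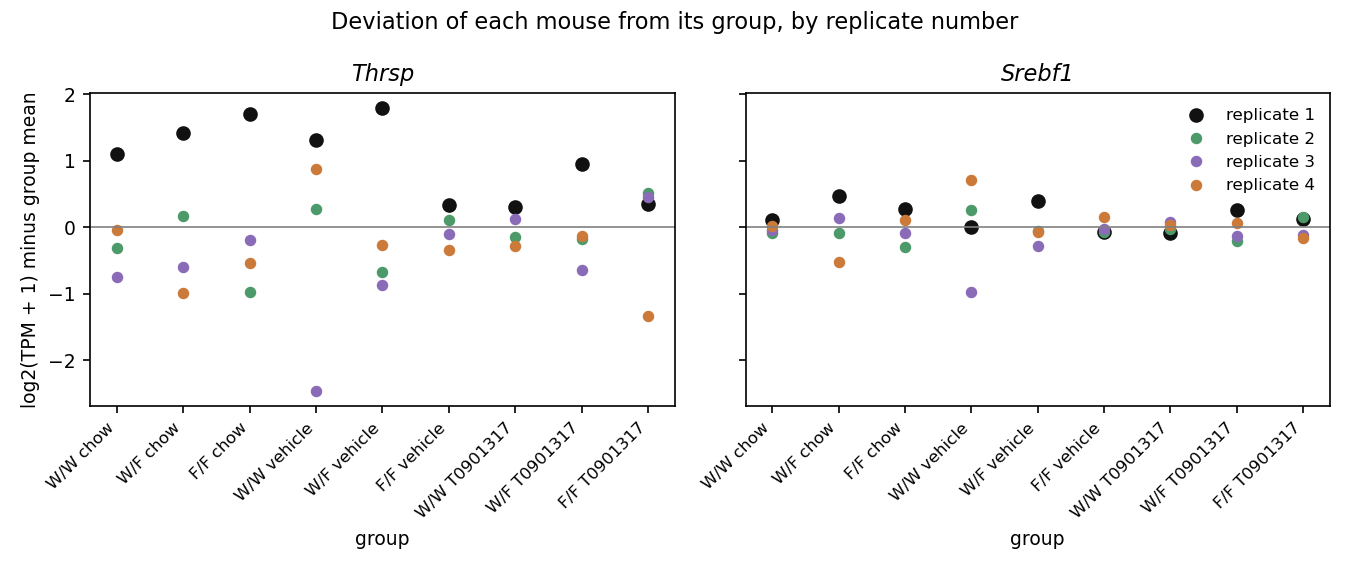
Deviation of each mouse from its group mean in log2(TPM + 1) for Thrsp and Srebf1, by group, coloured by the replicate number in the labels. Replicate 1 is the highest Thrsp value in 8 of 9 groups and the highest Srebf1 value in 5 of 9.

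Within groups, high Thrsp went with the number 1 in the labels. Replicate 1 was the highest mouse in 8 of 9 groups, the exception being F/F with T0901317, and replicates 3 and 4 were each the lowest in 4. For Srebf1 replicate 1 was highest in 5 groups, and for Mlxipl and Mid1ip1 in 4 each. This was noticed in the data and was not tested. The labels do not say what a number stands for. Across all genes, in no pair of groups did all same-numbered mice correlate above 0.1. The correlation between replicate 1 mice was low, but positive in every pair of groups without F/F T0901317 (0.0029 to 0.228). In pairs with F/F T0901317 it was -0.174 to 0.00838. W/W vehicle replicate 3 was the lowest of its group in all 4 members, and also in Fasn (31.2 TPM against 150 to 302) and Acly (35.05 TPM against 85.9 to 136).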

How the data were processed

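PolyA RNA from the livers of 36 mice was analysed, 4 in each of 9 groups taken from the labels. Per the submitters' processing notes, Trimmomatic 0.36, STAR 2.5.2b and featureCounts of Subread 1.5.2 were used with GRCm38 (mm10). The authors deposited TPM in 1 table, and how TPM were made from counts is not given in the sources used here. Depth was recovered from the steps between low TPM values (0.02 to 0.4) and GENCODE M21 exon lengths. Per library, 93.7% to 95.6% of genes under 20 reads came out as a whole number, with a tolerance of 0.1, against 20% by chance. Intervals of counting error are small at these levels and are not given.

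With limma 3.58.1 in R 4.3.3, log2(TPM + 1) was fitted for 16638 genes, those that reached 1 TPM in 4 or more samples, with 9 group means and a variance trend, over all 36 libraries. The 21 contrasts were two-sided, each adjusted by Benjamini-Hochberg over all genes tested, at a threshold of 0.05. The fit was tested on simulated data. Rescaled values use median-of-ratios factors over 13950 genes. Alternatives were array quality weights, a pseudocount of 0.1, a block for the replicate number, the rescaled values, no filter or 5 TPM as the filter, models with the compared groups alone, each library left out in turn and, chosen after seeing the data, recovered reads with voom.

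Named beside the members were Mlx, Mlxip, Scap, Insig1, Insig2, Nr1h3, Pklr, Txnip, Acly, Acaca, Fasn, Elovl6 and Gpam, of which the text gives a selection of comparisons. From each list the called genes with the highest and lowest log2 fold change were also eligible, and so were the 5 genes most alike to each member. Of the genes these rules name, 2 are not reported here. The members and lists were chosen with earlier results of these data known. Promoter windows came from RefSeq, and all 4 members matched. The Thrsp window is not printed because it overlaps an exon of the GENCODE model.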

Additional observations from a re-analysis of the deposited data

Results flagged for a closer look

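In 4 of the 36 sets of 4 mice examined (4 genes in 9 groups), 1 mouse lay apart from the other 3 by Dixon's criterion on TPM. Chance gives about 1 in 20 for normally distributed values, which TPM need not be. The criterion was not applied to log2(TPM + 1), the scale of the tests. Mlxipl in W/W vehicle replicate 4 was at 271.7 TPM, against 184 to 196 in the others. Thrsp was apart in 3 sets. W/F vehicle replicate 1 was at 82.55 TPM against 12.2 to 19.0, F/F chow replicate 1 at 52.73 TPM against 7.37 to 13.4, and F/F T0901317 replicate 4 at 26.21 TPM against 86.6 to 97.0. Leaving out F/F chow replicate 1 ended the Thrsp diet call in F/F (limma adjusted p 0.194) and the calls of Srebf1 and Thrsp in the diet response of F/F minus W/W. Leaving out W/F vehicle replicate 1 ended the Thrsp call of F/F against W/F on vehicle (adjusted p 0.0971). Leaving out W/W vehicle replicate 4 ended the calls of Mlxipl in the diet response of W/F minus W/W, of Srebf1 and Thrsp in that of F/F minus W/W, and of Mid1ip1 in the T0901317 response of W/F minus W/W.

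Responses differed between genotypes by the limma test of the difference in 13 of the 24 cases examined. For T0901317, 58.5% of all genes were called in W/F minus W/W, 30.4% in F/F minus W/W and 19.2% in F/F minus W/F. For the diet the same shares were 54.6%, 46.0% and 6.83%. The vehicle mice end the diet response and start the T0901317 response, so these cases are not independent. For the response to T0901317, W/F exceeded W/W by 1.792 for Srebf1, 0.812 for Mlxipl, 3.044 for Thrsp and 1.141 for Mid1ip1 on the log2 scale, and F/F exceeded W/W by 1.549 for Srebf1 and 0.9088 for Mlxipl. For the response to the MASH diet, W/F minus W/W was -1.23 for Srebf1, -0.633 for Mlxipl, -3.573 for Thrsp and -1.665 for Mid1ip1. F/F minus W/W was -0.8522 for Srebf1 and -2.56 for Thrsp, and F/F minus W/F was 2.137 for Mid1ip1. Of these 13, 4 ended without 1 of several single mice, namely Srebf1 and Thrsp in the diet response of F/F minus W/W, Mlxipl in that of W/F minus W/W, and Mid1ip1 in the T0901317 response of W/F minus W/W (without W/W vehicle replicate 4 alone). The chow mice of every diet response were an independent cohort.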

How the results depend on the processing

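Over the other settings, 632 of 672 member fold changes kept their side of the threshold, 18 lost the call and 22 gained it. The sign changed in 4, none of them called. With 1 library left out, 2965 of 3024 kept their side, 43 lost the call and 16 gained it, and the sign changed in 11, none of them called. Counts of members called that moved by over 1.5 times were as follows, and 148 of 168 counts did not. T0901317 against vehicle in W/W went from 3 to 1 with no filter or rescaled and to 0 with only the groups compared fitted. The diet count in F/F went from 3 to 1 rescaled. W/F against W/W on chow went from 1 to 2 with array quality weights and to 0 with only the groups compared, where calls among all genes also fell from 81 to 3. F/F against W/F on vehicle went from 2 to 1 with recovered reads. W/F against W/W on T0901317 went from 1 to 2 with the 5 TPM filter or rescaled, and to 3 with array quality weights or only the groups compared. The T0901317 response of F/F minus W/F went from 0 to 1 with the 5 TPM filter, rescaled, with array quality weights, with recovered reads and with only the groups compared. The diet response of F/F minus W/W went from 2 to 1 with no filter, with recovered reads and with only the groups compared.

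With 1 library left out, the count ranged from 1 to 2 for F/F against W/F on vehicle and the diet in W/W, from 2 to 3 for the diet in W/F and F/F and the T0901317 response of F/F minus W/W, and from 1 to 4 for T0901317 in W/W. It ranged from 0 to 1 for the T0901317 response of F/F minus W/F, from 0 to 2 for the diet response of F/F minus W/W and for W/F with W/W on T0901317, and from 3 to 4 for both responses of W/F minus W/W. It stayed at 4 for T0901317 in W/F and F/F, W/F against W/W on vehicle, F/F against W/W in all conditions and F/F against W/F on chow. It stayed at 3 for F/F against W/F on T0901317, and at 1 for the W/F and W/W chow mice and the diet response of F/F minus W/F.

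Same-numbered replicates had correlations of -0.174 to 0.297 over 36 pairs of groups, and 11 of 36 samples correlated best with their own number. For replicate 1 the correlations were positive in every pair without F/F T0901317. With the replicate block the count between W/F and W/W on T0901317 went from 1 to 2, and every other count stayed within 1.5 times. Under the block Thrsp was called with T0901317 in W/W (limma adjusted p 0.00992) and lower in W/F than in W/W on T0901317 (adjusted p 0.0383). Among the comparisons of other genes recomputed under every alternative, 3 values reversed, all when rescaled, and Mlx also turned in comparisons that were only rescaled. Mlx with T0901317 in W/F went from -0.08 to 0.5091, its response in W/F minus W/W from -0.05 to 0.5998, and Nr1h3 with T0901317 in W/F from -0.17 to 0.4239. None of the 3 was called as deposited. The cause of these reversals and of the moved counts was not tested, beyond the fewer samples in fits of only the groups compared. Depth limits Thrsp most, at 68 reads in its lowest library.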
